A study of Mus musculus with 22 samples.

Results

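The comparison described here set 3 RNA samples of CD45+ Sca1- mouse bone marrow cells (OGCsort +/-, samples 1, 7 and 9) against 3 RNA samples of double-negative marrow cells that carried neither antigen (OGCsort -/-, samples 4, 5 and 8). The samples were taken by the signs in their titles, and the records of the array runs give CD45 as the first sign and Sca1 as the second. They make up 6 of the 11 RNA samples of the series, and each was hybridized to the chips MOE430A and MOE430B, so the comparison holds 12 of 22 arrays. The series sorted primary marrow by these antigens, and a further OGCsort group carried both (+/+, 3 samples). A purity of 90% is stated for each OGCsort sort. The labels give no strain, sex, age or treatment of the mice, nor whether separate mice were used for each sample, so the p-values reflect the spread among the arrays of these RNA samples and nothing more. Precision is limited by how few arrays there are, and with 3 samples against 3 an exact two-sided permutation test cannot go below 0.1.

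CD45 is a tyrosine phosphatase on the surface of nearly all white blood cells and their precursors, and red cell precursors lose it as they mature. Sca1 marks blood stem cells and some mature lymphocytes. In marrow most cells belong to the granulocyte, monocyte, B lymphocyte and red cell lineages. Red cell precursors divide rapidly, fill with haemoglobin under the control of Gata1, Tal1 and Klf1, and at the end expel their nucleus and digest their organelles. Granulocyte precursors store antimicrobial proteins in granules, first in the primary and later in the secondary and tertiary kinds.

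Signals below are the deposited intensity rescaled to a trimmed mean of 500 on each array, and they are listed for -/- samples 4, 5 and 8 and then, after "against", for +/- samples 1, 7 and 9. A difference is +/- minus -/- on the scale of log2(signal + 32), ± its SE with n = 3 and 3, and a fold is 2 to that power, which understates the change of dim genes. Where all 3 samples of a group lay under a signal of 100, the fold was taken against 100 and is a bound ("at least"). A gene was called where the limma p, adjusted over the probe sets of both chips, was under 0.05. "Rose" and "fell" mean called higher or lower in +/- than in -/-.

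Wash runs were inferred from the recorded hybridization times, where a gap of over 60 minutes on a chip started a new run. The compared groups differed in run on chip A and in station on chip B. On chip A the 3 -/- arrays shared a run with +/+ samples 1 and 5, and the 3 +/- arrays shared the next run with +/+ sample 6, so no run of that chip held both compared groups and the difference could be separated from the run only through the +/+ samples. On chip B a run held the 3 -/- arrays and +/+ sample 1 on station 1, and +/- samples 7 and 9 and +/+ samples 5 and 6 on station 2. The array of +/- sample 1 was alone in its run, so with the block it added nothing to the chip B difference. No block of chip B held both compared groups, so there too the difference could be separated only through the +/+ samples. With the run, and on chip B the station, as a block, 492 of the 5569 called probe sets were still called. The median size of their difference went from 1.85 to 1.8, the median SE over all probe sets was 1.85 times as large, and 5561 kept their sign. Within the chip B run, with adjustment over that chip, 722 probe sets were higher and 455 lower, against 913 and 533 with all its arrays, and all 1853 probe sets of chip B called in the comparison kept their sign. That fit used the same OGCsort arrays of chip B less that of +/- sample 1, and the station still differed between the groups. The kept signs are therefore no separate check on the run or station. The result with the block is given beside each gene group as "with the block".

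Correlations of log2(signal + 32) over the probe sets of chip A were 0.848 to 0.886 between -/- samples, 0.864 to 0.903 between +/- samples and 0.642 to 0.789 across the groups. The -/- sample 4 stood nearer to the other group, with a mean correlation of 0.779 with the +/- samples against 0.660 for -/- sample 5 and 0.648 for -/- sample 8. Its chip A array was on station 1, as were the 3 +/- arrays, while those of -/- samples 5 and 8 were on station 2. The block on chip A held the run and not the station, whose part was not tested. The chip B array of -/- sample 4 came from another chip lot than the other 5. The 3' to 5' signal ratio of Gapdh, a sign of RNA length, was 8.17 to 11.8 in -/- and 13.8 to 19.6 in +/- samples on chip A, and overlapped on chip B at 11.6 to 14.8 and 10.4 to 22.0. The same ratio of actin overlapped on chip A, at 5.91 to 8.33 and 6.22 to 7.20. The part of RNA length in the results was not tested.

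The sorted antigen was read first. Ptprc, which encodes CD45, had signals of 1142, 272 and 149 against 7216, 8520 and 7890. It rose 19.6-fold (difference 4.30 ± 0.48, adjusted p = 4.51e-05), and the groups did not overlap. Its exact permutation p was 0.1, the smallest that 3 against 3 allows. With the block the difference was 3.96 (adjusted p = 0.057), and without -/- sample 4, where Ptprc was higher than in the other -/- samples, the rise was 33.6-fold. A second Ptprc probe set, on chip B, had a difference of 4.36 (adjusted p = 1.91e-05), and 5.24 with the block (adjusted p = 0.0219). The probe annotation used here gives no probe set the single name Ly6a, the gene of Sca1, and that antigen was not analysed here.

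Of 40405 probe sets tested, 3197 (7.91%) were higher and 2372 (5.87%) lower in CD45+ Sca1- cells. On chip A these were 2080 (10.8%) and 1636 (8.53%) of 19177, and on chip B 1117 (5.26%) and 736 (3.47%) of 21228. Taken as 1 probe set per gene, 1605 of 16997 genes rose (9.44%) and 1219 fell (7.17%). The signals of the groups did not overlap for 5649 genes (33.2%). These shares of 9.44%, 7.17% and 33.2% are the background for the counts of each gene list below. The median difference over all genes was -0.05. Among the risen genes the median difference was 1.82 and 65 changed at least 16-fold. Among the fallen genes the median size was 1.76, 67 changed at least 16-fold and 10 at least 64-fold. With the block 83 of the risen and 187 of the fallen genes were still called. In each of the 6 fits that left out 1 sample, 882 of the risen and 684 of the fallen genes stayed called. Without -/- sample 4 the counts were 1898 risen and 1243 fallen genes, without +/- sample 1 they were 1378 and 1101, and without both 1821 and 1224. Without +/- sample 7 the count of rises was 1042, and without -/- sample 5 that of falls was 809. The plot of difference against signal shows the spread.

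**Figure D1:**
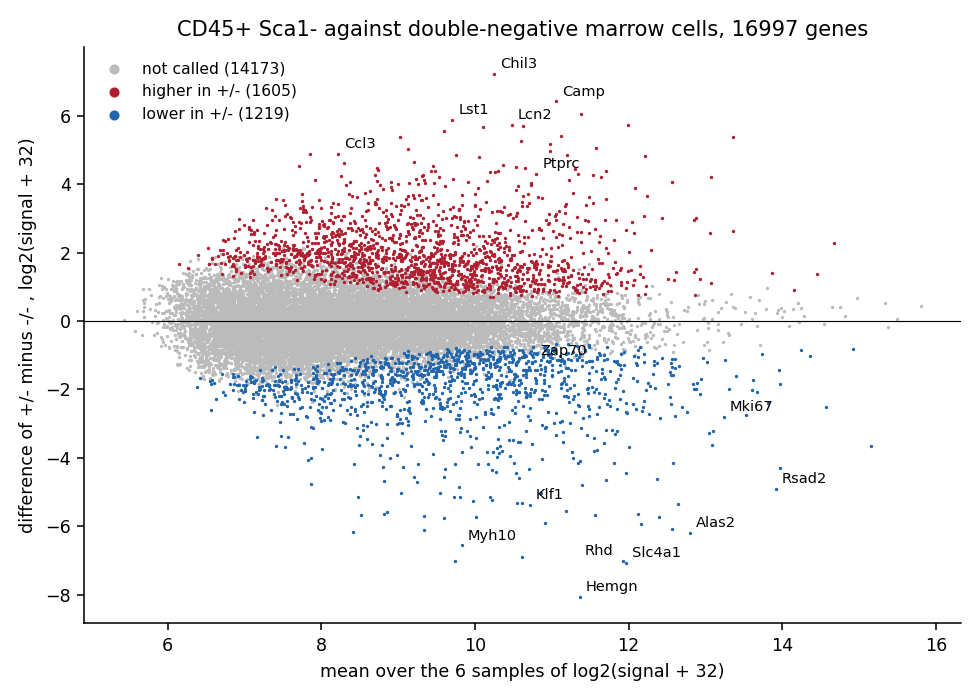
Each point is a gene, with the mean of log2(signal + 32) over the 6 samples on the x axis and the difference of +/- minus -/- on the y axis. Red points are the 1605 genes called higher, blue points the 1219 called lower and grey points the rest. The falls reach further than the rises, down to Hemgn at -8.06 against Chil3 at 7.23.

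Hemgn, a nuclear factor of developing red cells, had the largest fall. It gave signals of 28650, 60690 and 45960 against 169.9, 181 and 65.0 and fell 268-fold (difference -8.06 ± 0.34, adjusted p = 1.38e-08). Signals of Slc4a1, the band 3 anion exchanger of the red cell membrane, were 35550, 58110 and 48460 against 314, 566 and 167, a fall of 135-fold. For Rhd, a member of the Rh blood group proteins, they were 37320, 50360 and 46020 against 401, 369 and 199, a fall of 129-fold. Every +/- sample lay far under every -/- sample for these 3 genes, and each was still called with the block (adjusted p = 0.000191, 0.000342 and 9.54e-05). Other genes among the 12 largest falls were Cldn13, a claudin, with 16060, 16940 and 18140 against 82.3, 338 and 39.0 (118-fold lower, at least 129-fold leaving out +/- sample 7), and Myh10, the heavy chain of a non-muscle myosin, with 4233, 9204 and 17260 against 78.4, 57.9 and 50.6 (at least 66.7-fold lower). Aldh1a1, an enzyme that makes retinoic acid, fell at least 40.7-fold from signals of 4061, 6029 and 6239 against 96.1, 14.5 and 48.2. All 3 were still called with the block. In bulk RNA fewer cells of a type and less RNA per cell cannot be told apart.

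Chil3, a chitinase-like protein secreted by myeloid cells, had the largest rise. It had signals of 359.9, 12.3 and 24.7 against 38200, 12350 and 6987 and rose 150.0-fold (difference 7.23 ± 0.77, adjusted p = 3.05e-05; 93.7-fold leaving out +/- sample 1, and at least 113-fold leaving out -/- sample 4). Lst1, a leukocyte transmembrane protein, had signals of 80.7, 61.3 and 92.2 against 10390, 7751 and 3167, a rise of at least 48.3-fold (difference 5.87 ± 0.36, adjusted p = 2.50e-07). Its -/- samples all lay under 100. Both were still called with the block (adjusted p = 0.0181 and 0.00117). Mcemp1, a transmembrane protein of mast cells and monocytes, had signals of 782, 84.2 and 79.9 against 24650, 13380 and 4363 (51.6-fold higher, 82.9-fold leaving out +/- sample 9 and at least 85.8-fold leaving out -/- sample 4). Camp, a neutrophil antimicrobial peptide, had signals of 1415, 46.9 and 75.3 against 70740, 14320 and 7467 (85.4-fold higher, 50.0-fold leaving out -/- sample 5, 45.0-fold leaving out +/- sample 1, 138-fold leaving out +/- sample 9 and at least 149-fold leaving out -/- sample 4). Rassf4, a Ras-binding signalling protein, had signals of 83.9, 43.3 and 29.1 against 2294, 7828 and 2003 (at least 25.3-fold higher, and at least 16.5-fold leaving out +/- sample 7). Among these genes the block ended the calls of Camp (adjusted p = 0.0507) and Mcemp1 (adjusted p = 0.0578) and not that of Rassf4 (adjusted p = 0.0113).

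The promoters of the 2 steepest falls and the 2 steepest rises that have an entry in the RefSeq promoter table (build GRCm38.p6) are printed here, since factors of these lineages are known to bind such sites. Each window runs from 250 bases before to 50 after the gene's start and is written 5′ to 3′ on the gene's strand. Capitals mark matches on either strand to 4 motifs: that of Gata1 and its relatives (AGATAA), the CACCC box of Klf factors (CCNCNCCC), that of PU.1 (GAGGAAGT) and that of C/EBP factors (TTNCNNAA). Hemgn lies on the minus strand at chr4:46404134-46404433, Rhd on the plus strand at chr4:134864286-134864585, Chil3 on the minus strand at chr3:106167515-106167814 and Camp on the minus strand at chr9:109849407-109849706.
Hemgn: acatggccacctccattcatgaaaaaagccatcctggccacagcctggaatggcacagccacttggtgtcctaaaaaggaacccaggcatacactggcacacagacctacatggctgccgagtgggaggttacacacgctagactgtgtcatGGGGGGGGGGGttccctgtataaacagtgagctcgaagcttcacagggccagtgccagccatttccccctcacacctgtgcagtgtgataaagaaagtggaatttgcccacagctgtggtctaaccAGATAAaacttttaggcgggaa
Rhd: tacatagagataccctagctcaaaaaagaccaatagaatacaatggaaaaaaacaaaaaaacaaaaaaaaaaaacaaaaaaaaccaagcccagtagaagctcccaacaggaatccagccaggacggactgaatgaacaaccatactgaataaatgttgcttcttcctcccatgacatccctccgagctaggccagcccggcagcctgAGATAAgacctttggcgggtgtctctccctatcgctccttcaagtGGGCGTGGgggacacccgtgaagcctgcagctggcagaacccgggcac
Chil3: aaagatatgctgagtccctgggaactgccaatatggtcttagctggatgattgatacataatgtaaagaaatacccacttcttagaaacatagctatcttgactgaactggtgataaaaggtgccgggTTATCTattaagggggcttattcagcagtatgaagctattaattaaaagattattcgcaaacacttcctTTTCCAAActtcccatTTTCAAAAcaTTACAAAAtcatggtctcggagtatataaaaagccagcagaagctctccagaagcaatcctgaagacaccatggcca
Camp: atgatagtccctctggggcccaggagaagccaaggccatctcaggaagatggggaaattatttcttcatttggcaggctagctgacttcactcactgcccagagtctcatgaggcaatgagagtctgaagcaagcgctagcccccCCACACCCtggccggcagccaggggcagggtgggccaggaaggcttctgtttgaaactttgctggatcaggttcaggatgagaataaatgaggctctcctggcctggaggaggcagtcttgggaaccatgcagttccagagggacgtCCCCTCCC

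The Hemgn window held AGATAA once, after the start, and its other capitals are a run of G that matches the CACCC box on the opposite strand. The Rhd window held AGATAA once, 43 bases before the start, and 1 CACCC box. In the Chil3 window the GATA motif stood on the opposite strand 122 bases before the start, and 3 C/EBP matches stood closer to it. The Camp window held 2 CACCC boxes and none of the other motifs. Over all 27025 listed promoters 11.4% held the GATA motif, 49.1% the CACCC box, 3.28% the PU.1 motif and 40.7% the C/EBP motif. Of the 16997 genes tested 13535 have an entry, and of these 7.91%, 64%, 2.96% and 33.6% held the motifs in that order. Among the 986 fallen genes with one the shares were 8.62%, 68.3%, 1.52% and 31.7%, and among the 1304 risen genes 6.75%, 69.2%, 5.21% and 31.4%, in the same order. Among the 43 fallen members with an entry of the 3 red cell lists described next, 12 held the GATA motif (27.9%), 30 the CACCC box (69.8%), 0 the PU.1 motif and 15 the C/EBP motif (34.9%). Among the 28 risen granule and monocyte genes with an entry, 6 held the PU.1 motif (21.4%), 6 the GATA motif (21.4%), 14 the CACCC box (50%) and 17 the C/EBP motif (60.7%). These matches are a description of letters and not of binding.

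**Figure D2:**
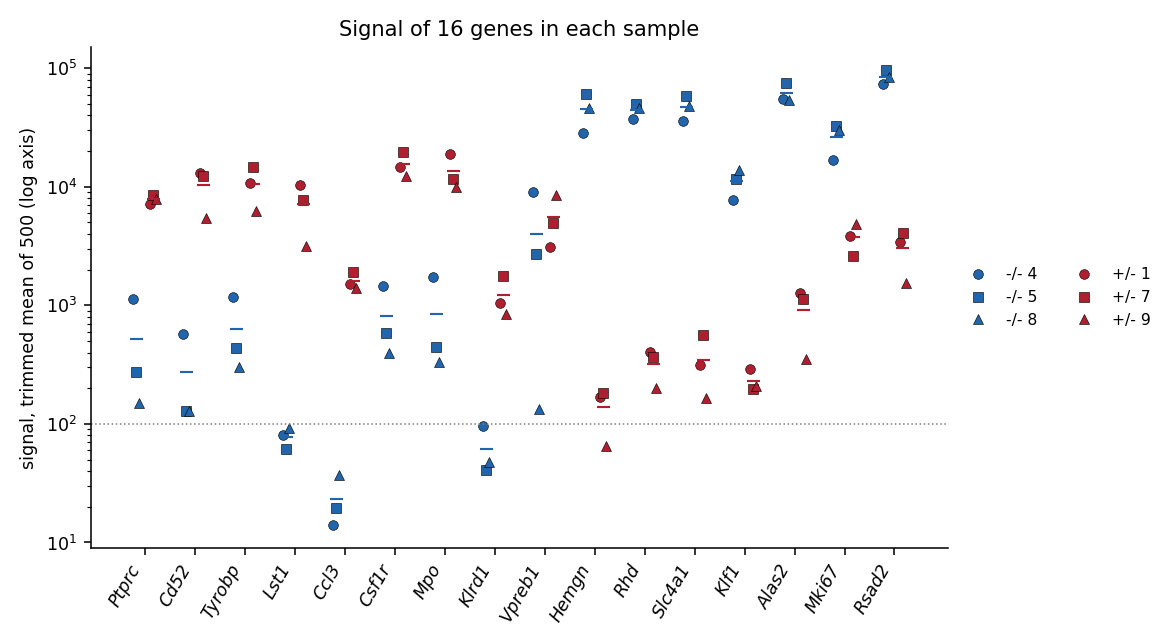
Signal on a log axis of 16 genes in the 3 -/- samples (blue) and the 3 +/- samples (red), with a symbol for each sample, a bar at the group mean and a dotted line at 100. Ptprc to Klrd1 are high in red and Hemgn to Rsad2 high in blue, while Vpreb1, at 9067 in -/- sample 4 and 134 in -/- sample 8, overlaps.

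Red cell membrane and blood group genes were lower in CD45+ Sca1- cells. Of 20 measured members 18 fell and 0 rose, against 7.17% of all genes falling, and the median difference was -4.22. With the block 15 were called lower and the median was -4.21. Aqp1, the water channel of the red cell membrane, had signals of 11880, 18130 and 18520 against 284, 290.2 and 351 (46.9-fold lower, adjusted p = 1.38e-08). Ank1, the ankyrin that ties the membrane to its skeleton, had 12970, 28110 and 26580 against 373, 413 and 391 (50.4-fold lower). The groups stood well apart for both, and the +/- values of each spread by less than the -/- values. Ermap, a blood group protein of red cell precursors, had 23970, 44600 and 42560 against 658, 562 and 452, and Rhag, the partner of the Rh proteins, had 4521, 13620 and 14580 against 94.4, 61.6 and 4.91. Kel, the Kell blood group protease, had 5489, 6624 and 6396 against 268, 50.5 and 142. The 2 members not called were Cd47, which restrains engulfment by macrophages and was at 3503, 3569 and 3621 against 1738, 2700 and 1782 (adjusted p = 0.0721), and the glucose transporter Slc2a1, at 224, 62.5 and 31.5 against 185, 223 and 216, whose groups overlapped.

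Most nuclear factors of the lineage moved the same way. Of 19 erythroid transcription factors and receptor genes 13 fell and 0 rose, with a median difference of -2.12, and with the block 7 were called lower (median -1.88). The other 6 were not called, and 3 of these had a positive difference, up to 1.19. Klf1, which activates the adult beta globin gene, had signals of 7772, 11740 and 13780 against 291, 197 and 207 (41.6-fold lower, adjusted p = 4.84e-08). Tal1 had 6075, 6863 and 7964 against 464, 278 and 177 (21.9-fold lower) and Gata1 5618, 8844 and 8214 against 526, 172 and 235 (23.9-fold lower). For Klf1 and Gata1 the highest +/- signals, 291 and 526, lay far under the lowest -/- signals. Sox6, which silences embryonic globins, was bright in each -/- sample and near the bottom of the scale in each +/- sample, at 2201, 3453 and 3000 against 11.9, 10.5 and 2.46. Trim10, a ring finger protein of late red cell precursors, fell 59.4-fold. Epor, the erythropoietin receptor, had 1576, 2326 and 1705 against 422, 379 and 401 (4.33-fold lower, adjusted p = 0.000133; 0.131 with the block), a smaller fall than those of the nuclear factors named before it. Lmo2, a partner of Tal1 that is counted among the stem and progenitor genes, fell 5.13-fold from 3313, 6993 and 6635 against 1019, 1221 and 851 (adjusted p = 7.68e-05; 0.0511 with the block).

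Haem synthesis and iron genes were mostly lower in CD45+ Sca1- cells. Of 27 members 21 fell and 2 rose, with a median of -3.22, and with the block 13 were called lower and 0 higher (median -3.26). Alas2, the red cell form of the first and rate-limiting enzyme, had signals of 55350, 75530 and 53480 against 1277, 1134 and 352 (72.6-fold lower). The enzymes Alad, Uros, Urod, Cpox and Ppox of later steps fell, by 20.1-fold, 9.53-fold, 16.3-fold, 17.7-fold and 14.8-fold. Fech, which inserts the iron, had 3602, 10470 and 8663 against 142, 181 and 177, and fell 35.0-fold. These 7 enzymes were still called with the block, with adjusted p from 0.000584 to 0.029. Among the transporters, Slc25a37, the mitochondrial iron importer mitoferrin-1, had 13110, 24190 and 20000 against 898, 728 and 867 (21.6-fold lower), and Tfrc, the transferrin receptor, had 22970, 27090 and 29790 against 1782, 3644 and 3544 (9.21-fold lower). Glrx5, which serves iron-sulphur cluster assembly, was among the brightest genes of the -/- samples at 95410, 121600 and 187000 against 8055, 14020 and 9365.

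The members that went the other way were Alas1, the housekeeping form of the first enzyme, at 193, 259.9 and 63.6 against 900.4, 416 and 425, and Hmox1, which breaks haem down, at 23.3, 65.4 and 19.3 against 372, 212 and 156. Alas1 rose 3.12-fold (adjusted p = 0.0463) and Hmox1 at least 2.01-fold (adjusted p = 0.0281). Neither was called with the block (adjusted p = 0.943 and 0.508). Both lost the call when single samples were left out, Alas1 without -/- sample 8 or any of the +/- samples, where its adjusted p was 0.074 to 0.167, and Hmox1 without -/- sample 4 or 8 or +/- sample 1 or 7, where it was 0.0603 to 0.104.

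Red cell enzymes and the genes of terminal maturation gave mixed lists with a downward majority. Of 18 red cell enzymes 12 fell and 2 rose (median -2.21), with 6 lower and 0 higher with the block (median -1.81). Car2, a carbonic anhydrase, fell 67.9-fold from 37030, 61610 and 54700 against 779, 672 and 669, the smallest adjusted p of the list at 6.52e-09. Prdx2, an abundant red cell peroxiredoxin, fell 19.7-fold from 64220, 82890 and 66840 against 2714, 4620 and 3617. Aldoa and Tpi1, enzymes of glycolysis in all cells, rose 6.41-fold and 1.8-fold, and neither was called with the block (adjusted p = 0.0503 and 0.17). Tpi1 also lost its call without -/- sample 5 or 8 or +/- sample 7, with adjusted p of 0.0579 to 0.0809. Of 21 genes of organelle removal and enucleation 15 fell and 1 rose (median -2.27), with 6 lower and 0 higher with the block (median -2.44). Marchf8, a ubiquitin ligase, had 4943, 10640 and 24550 against 1080, 309 and 589.8 (17.7-fold lower; adjusted p = 0.0729 with the block). Tent5c, a poly(A) polymerase, had 33920, 48620 and 39970 against 1257, 1585 and 452 (40.3-fold lower), and Xpo7, an exportin needed for nuclear loss in the red cell line, had 4554, 5254 and 7457 against 729, 608 and 575 (8.5-fold lower). Of 8 tested Xpo7 probe sets 3 were called lower and 0 higher. The riser was Bnip3, a mitochondrial receptor for autophagy, at 369.8, 229 and 70.9 against 468, 698 and 537 (2.68-fold, adjusted p = 0.0437), which was not called with the block (adjusted p = 0.65) or without any 1 of -/- samples 5 and 8 and the 3 +/- samples (adjusted p = 0.0668 to 0.152).

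Globin genes were poorly covered. Of 12 listed, 6 had no probe set that names a single gene, the adult beta chains Hbb-bs and Hbb-bt among them. Of the 6 measured, 1 fell, with a median of -1.10. The embryonic Hbb-y was at 99.4, 239 and 257 against 18.2, 12.2 and 9.83 (at least 1.65-fold lower, adjusted p = 0.00893; 0.328 with the block). Hba-a1 had signals of 199, 310.0 and 483 against 80.6, 44.8 and 229.7 and Hba-a2 of 943, 707 and 614 against 218, 463 and 673, and the groups overlapped for both. A second globin gene was called lower without -/- sample 4 and also without +/- sample 1. The alpha globin genes are near-identical copies, and whether RNA of 1 adds to the signal of the other's probe set was not tested. Both read far below Alas2, a haem synthesis gene, at 55350, 75530 and 53480 in the -/- samples. Probe sets naming several genes were not read for any gene, and how much of the alpha globin RNA these probe sets report was not tested.

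Genes of cell division were lower in CD45+ Sca1- cells. Of 29 mitosis genes 27 fell and 0 rose (median -2.09), and of 27 replication genes 18 fell and 0 rose (median -1.31). With the block 3 of each list were called lower, at medians of -1.75 and -1.40. Ube2c, the ubiquitin-conjugating enzyme of the anaphase-promoting complex, had signals of 4987, 10840 and 8241 against 625, 397 and 1010 (11.5-fold lower, adjusted p = 1.68e-05; 0.0302 with the block). Mki67, a proliferation marker, had 16820, 32350 and 30280 against 3811, 2600 and 4831 (6.95-fold lower; 0.0579 with the block). Ccna2, cyclin A, had 6213, 8689 and 8601 against 1403, 1393 and 1479 (5.34-fold lower; 0.0621 with the block). The +/- samples carried clear signal for each of these genes, between 397 and 4831, and all lay under the -/- samples. Tk1, thymidine kinase, had 5106, 5746 and 5292 against 687, 890.4 and 852 (6.46-fold lower, and adjusted p = 0.00554 with the block). The clamp Pcna had 15260, 20340 and 21690 against 4349, 5836 and 9203 (3.06-fold lower; adjusted p = 0.171 with the block), while the licensing helicase subunit Mcm5 overlapped at 1271, 1320 and 1379 against 1023, 1096 and 1292.

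Of 18 inhibitors of the cell cycle and D cyclins 6 fell and 3 rose (median -0.39), with 2 lower and 0 higher with the block. Among the inhibitors of cyclin-dependent kinases Cdkn2c had 5526, 9649 and 8918 against 1770, 1801 and 2105 (4.09-fold lower) and Cdkn2d 2498, 3647 and 2812 against 698, 797 and 637 (4.03-fold lower), and both were called with the block (adjusted p = 0.0277 and 0.00971). The risers were the antiproliferative Btg1, at 2624, 618 and 594 against 6537, 7942 and 9024 (7.60-fold, and 12.2-fold leaving out -/- sample 4), Ccnd2, a D cyclin, at 507, 305 and 195 against 983, 1923 and 1237 (3.94-fold), and Ccng2, cyclin G2, at 1274, 908 and 586 against 1700, 2121 and 2351 (2.27-fold). None of the 3 was called with the block (adjusted p = 0.19, 0.326 and 0.58), and Ccng2 was not called without -/- sample 8 or +/- sample 9 (adjusted p = 0.055 to 0.0558). The median of the list turned to 0.41 where the brightest probe set stood for each gene.

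White blood cell genes in general rose. Of 27 leukocyte surface and signalling genes 25 rose and 0 fell, against 9.44% of all genes rising, with a median of 3.20, and the groups did not overlap for 26. With the block 1 was called higher and the median was 2.51. That gene was Cd52, a small surface glycoprotein of leukocytes, at 571, 128.1 and 128.5 against 13180, 12290 and 5431 (38.6-fold, adjusted p = 0.0114 with the block; 60-fold leaving out -/- sample 4). Tyrobp, an adaptor of activating receptors, had 1169, 436 and 301 against 10670, 14730 and 6283 (17.5-fold, adjusted p = 3.48e-05; 0.0624 with the block). Lcp1, the actin-bundling plastin of leukocytes, had 506, 133 and 150.0 against 4118, 3382 and 2432 (12.9-fold; 0.0528 with the block). For both genes -/- sample 4 was the highest of its group and still far under the lowest +/- signal. The summed signal of the list was 39780 in -/- sample 4, 9591 in sample 5 and 4807 in sample 8, and 132000 to 161100 in the +/- samples.

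Granule proteins separated the groups by large folds that leaned on single samples. Of 8 primary granule genes 7 rose (median 4.16), and 5 with the block (median 4.31). Of 19 secondary and tertiary granule genes 14 rose (median 4.24), and 3 with the block (median 4.48). Ctsc, the protease that activates granule enzymes, had 686, 130.3 and 148 against 4046, 6153 and 4034 (17-fold, 27.4-fold leaving out -/- sample 4; adjusted p = 0.043 with the block). Elane, neutrophil elastase, had 89.8, 68.5 and 46.1 against 603, 870.4 and 754 (at least 5.81-fold, adjusted p = 8.53e-05; 0.0737 with the block). Ctsg, cathepsin G, had 432, 78.8 and 39.9 against 5493, 1409 and 2414 (17.4-fold, at least 20.4-fold leaving out -/- sample 4; 0.034 with the block). In +/- sample 1 the later granule genes were brightest: Pglyrp1, a peptidoglycan-binding protein, stood at 31.1, 37.6 and 25.4 against 5905, 1238 and 471, Ltf, lactoferrin, at 1267, 599 and 342 against 38120, 5773 and 3306, and Cd177, a neutrophil surface protein, at 47.3, 30.9 and 37.5 against 5169, 1082 and 372. Their folds were at least 11.8-fold, 13.4-fold and at least 10.1-fold, and at least 6.06-fold, 6.53-fold and at least 5.08-fold leaving out that sample, and at least 20.8-fold, 22.1-fold and at least 18.2-fold leaving out +/- sample 9. With the block their adjusted p were 0.0779, 0.173 and 0.324. The summed signal of the later granule list was 490500 in +/- sample 1, 177100 in sample 7 and 106800 in sample 9, against 4045 to 22700 in -/- samples. Mmp8 and Olfm4, of the same list, were not called, at 239.8, 293 and 196 against 1991, 469 and 359 and 51.9, 111 and 59.4 against 2016, 489 and 55.6. Hp, haptoglobin, which neutrophil precursors also make, had 276, 29.2 and 44.5 against 13620, 4101 and 2648 (47.2-fold, 29.5-fold leaving out +/- sample 1 and at least 40.4-fold leaving out -/- sample 4; adjusted p = 0.0174 with the block).

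Of the 6 measured subunits of the phagocyte NADPH oxidase, which makes superoxide, 4 rose (median 2.16), and 0 were called with the block (median 1.5). Cyba, the small membrane subunit, had 853, 56.8 and 15.4 against 11330, 6944 and 6067 (50.6-fold, 28.0-fold leaving out -/- sample 8 and at least 59.5-fold leaving out sample 4; adjusted p = 0.103 with the block). Cybb, its large partner, had 71.4, 101 and 130.5 against 697, 508 and 314 (3.94-fold; 0.551 with the block). Rac2, the regulatory GTPase, had 962, 689.9 and 408 against 4057, 4307 and 4500 (6.34-fold; 0.126 with the block). The groups did not overlap for any of the 6 subunits, of which 1 was lower in +/- samples without being called.

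Phagocyte receptors and secreted signals rose in part. Of 28 receptors 9 rose and 0 fell (median 0.98), and 1 with the block (median 1.2). This was Fcgr3, a low-affinity antibody receptor, at 27.1, 24.6 and 31.0 against 1004, 863 and 474 (at least 5.88-fold, adjusted p = 5.09e-05; 0.0132 with the block). Clec7a, the receptor of fungal beta-glucan, had 746, 386 and 331 against 2157, 4297 and 2178 (5.62-fold; 0.0734 with the block). Csf2rb, the shared beta chain of cytokine receptors, had 334, 176 and 551 against 2113, 2335 and 1650 (5.77-fold; 0.182 with the block). Csf3r, the receptor of granulocyte colony-stimulating factor, was at 70.7, 198 and 182 against 972, 484 and 203 (adjusted p = 0.0552) and was not called.

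Of 24 innate sensing and cytokine genes 10 rose and 0 fell (median 1.00), and 3 with the block (median 1.62). All 3 encode chemokines. Ccl3 had 14.1, 19.5 and 36.8 against 1510, 1915 and 1396 (at least 12.3-fold, difference 4.89 ± 0.30, adjusted p = 2.50e-07; 0.000727 with the block). Ccl6 had 112, 83.2 and 32.7 against 1433, 2885 and 1204 (17-fold; 0.00916 with the block) and Ccl9 299, 129 and 41.6 against 4202, 3378 and 2359 (20.7-fold; 0.0103 with the block). Each was dim in the -/- samples and above 1200 in every +/- sample. Alox5ap, which hands arachidonic acid to 5-lipoxygenase, had 1111, 302 and 66.4 against 19060, 13740 and 6600 (35.9-fold, 66.3-fold leaving out -/- sample 4 and 19.5-fold leaving out sample 8; adjusted p = 0.105 with the block). Casp1, the inflammasome protease, had 92.3, 68.9 and 69.8 against 411, 477 and 312 (at least 3.23-fold; 0.221 with the block), and its adaptor Pycard 646, 297 and 73.5 against 2214, 3215 and 2861 (9.64-fold, 14.8-fold leaving out -/- sample 4 and 5.85-fold leaving out sample 8; 0.157 with the block).

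Of 18 myeloid transcription factors 10 rose and 0 fell (median 1.23), and 2 with the block (median 2.15). Cebpb, of the C/EBP family, had 89.2, 19.8 and 87.1 against 1421, 1128 and 504 (at least 7.33-fold; 0.0308 with the block). Klf4, a driver of monocyte fate, had 573, 69.0 and 24.4 against 3055, 2886 and 3388 (20.8-fold, 12.7-fold leaving out -/- sample 8 and at least 23.8-fold leaving out sample 4; 0.0726 with the block). Irf8, which directs monocytes and dendritic cells, had 541, 185 and 212 against 1752, 2992 and 3153 (8.28-fold; 0.136 with the block). Spi1, which encodes PU.1, rose by less, at 509, 591 and 323 against 1232, 882 and 787 (difference 0.99, adjusted p = 0.0428), and it was not called with the block (adjusted p = 0.235) or without -/- sample 8 or any 1 of the +/- samples (adjusted p = 0.0566 to 0.155).

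Among 26 genes typical of monocytes and macrophages 14 rose and 0 fell (median 1.75), and 4 with the block (median 1.75). Csf1r, the receptor of macrophage colony-stimulating factor, had 1463, 588 and 400.1 against 14670, 19640 and 12220 (20.7-fold, adjusted p = 1.34e-05; 0.00377 with the block). Lgals3, galectin-3, had 278, 44.7 and 142 against 6814, 5111 and 2815 (28.9-fold; 0.00764 with the block). F13a1, a clotting factor subunit made by monocytes, had 831, 381 and 375 against 3905, 3439 and 2186 (5.93-fold; 0.0381 with the block). These genes were above 2000 in all 3 +/- samples; Lgals3 and F13a1 were highest in +/- sample 1 and Csf1r in sample 7. C1qa, a complement gene of tissue macrophages, was at 41.8, 69.0 and 32.3 against 65.8, 35.3 and 51.3, under 100 in all 6 samples.

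B lineage genes rose in part, and -/- sample 4 overlapped with the +/- samples in several. Of 24 members 13 rose and 0 fell (median 1.74), against 9.44% of all genes rising, and 1 was called with the block (median 1.84). The groups did not overlap for 12 members, against 33.2% of all genes. The robust fit called 7. Ms4a1, the B cell antigen CD20, had 566, 289 and 272 against 2979, 8770 and 7802 (15.3-fold, adjusted p = 1.21e-05; 0.0301 with the block). Cd22 had 1134, 589 and 596 against 3365, 10900 and 8848 (8.98-fold; 0.0798 with the block), and Cd79b, a signalling chain of the B cell receptor, had 3445, 809.9 and 157 against 5523, 12940 and 13980 (12.2-fold, 25.2-fold leaving out -/- sample 4 and 5.87-fold leaving out sample 8; 0.322 with the block). Genes of B precursors were bright in -/- sample 4: Vpreb1, a surrogate light chain, was at 9067, 2732 and 134 against 3087, 4955 and 8582, and Rag1, which rearranges receptor genes, at 1699, 657 and 61.7 against 1393, 2368 and 3123. Neither was called. The summed signal of the B list was 39430, 14110 and 6011 in the -/- samples and 40930 to 94100 in the +/- samples, so sample 4 nearly matched the lowest +/- sample. Of 11 plasma cell genes 3 rose (median 0.72), 0 with the block, and 1 without -/- sample 5, +/- sample 7 or +/- sample 9. The defining Jchain was at 186, 58.8 and 152 against 223, 167 and 123, and Mzb1, an endoplasmic reticulum protein of these cells, rose 3.02-fold (4.89-fold leaving out -/- sample 4) with overlapping signals of 6812, 2053 and 1215 against 4449, 8862 and 12300. It was not called with the block (adjusted p = 0.547) or without -/- sample 5 or 8 or +/- sample 7 or 9 (adjusted p = 0.128 to 0.194).

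Of 9 genes of MHC class II presentation 7 rose and 0 fell (median 2.35), and 2 with the block (median 1.84). H2-Aa, an alpha chain, had 1072, 401 and 52.6 against 13300, 18270 and 12360 (42.1-fold, 75.6-fold leaving out -/- sample 4 and 20.9-fold leaving out sample 8; adjusted p = 0.0277 with the block). H2-Ab1, its beta partner, had 330.5, 57.2 and 34.9 against 1793, 2993 and 1059 (14.1-fold, at least 13.8-fold leaving out -/- sample 4; 0.124 with the block), and Cd74, the invariant chain, had 930.3, 367 and 326 against 2266, 4623 and 2728 (5.99-fold; 0.154 with the block). In each of these the +/- sample 7 was highest and -/- sample 8 lowest. Beside 9.44% of all genes rising, 2 of 14 dendritic cell genes rose (median 0.62), Ly6d and Tcf4, and 0 with the block. That count was 1 without -/- sample 5 and 4 without +/- sample 1. Itgax, CD11c, was at 236, 162 and 242 against 321, 502 and 496 and was not called.

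T and NK cell genes divided. Of 25 members 10 rose and 1 fell (median 0.92), and 1 rose with the block (median 0.61). Klrd1, the CD94 receptor of natural killer cells, had 96.6, 40.8 and 47.8 against 1039, 1753 and 848 (at least 9.01-fold, adjusted p = 5.80e-06; 0.00849 with the block). Nkg7, a cytotoxic granule protein, had 201, 293 and 253 against 1572, 1739 and 1043 (5.21-fold; 0.0507 with the block), and Ccl5, a chemokine of cytotoxic cells, had 194, 28.0 and 272 against 2068, 4603 and 1883 (16.5-fold, 10.1-fold leaving out -/- sample 5; 0.0803 with the block). The T cell receptor chain gene Cd3e was at 146, 114 and 67.3 against 713, 403 and 32.6 and was not called. The member that fell was Zap70, a kinase of T cell receptor signalling, at 2182, 2738 and 2929 against 907, 1391 and 1159 (2.25-fold lower, adjusted p = 0.00475, and 0.458 with the block). Of the 3 tested Zap70 probe sets 1, the one given, was called lower and 0 higher.

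Of 11 genes of basophils, mast cells and eosinophils 3 rose and 1 fell (median 0.82), and 1 rose with the block (median 1.49). Mcpt8, a protease of basophils, had 118, 98.5 and 188 against 2478, 1391 and 1343 (10.4-fold, adjusted p = 0.00358; 0.0129 with the block). Cpa3, carboxypeptidase A3, had 45.7, 209 and 282 against 968, 877 and 845 (5.14-fold, 3.37-fold leaving out -/- sample 4; 0.0918 with the block). Hdc, which makes histamine, ranged widely over the +/- samples, at 31.3, 50.9 and 17.5 against 3257, 488 and 55.8 (at least 4.03-fold; at least 1.62-fold leaving out +/- sample 1 and at least 9.91-fold leaving out sample 9). It was not called with the block (adjusted p = 0.374) or without any 1 sample other than +/- sample 9 (adjusted p = 0.0655 to 0.167). The one that fell was Cma1, mast cell chymase, at 396, 462 and 638 against 93.8, 153 and 33.0 (4.54-fold lower; 0.45 with the block).

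Of 21 stem and progenitor genes 5 rose and 1 fell (median 0.66), beside 9.44% and 7.17% of all genes. With the block 0 of either were called (median 1.14). The count of rises was 2 without -/- sample 5 and 3 without +/- sample 1 or +/- sample 7. Cd34 had 56.7, 55.5 and 29.5 against 246, 189 and 232 (at least 1.92-fold, adjusted p = 0.00623; 0.372 with the block). Kit, the receptor of stem cell factor, was at 343, 303 and 100.1 against 604, 357 and 173, and Flt3 at 148, 1177 and 515 against 338, 408 and 635. The groups overlapped for both, and neither was called. Myb, needed in all early blood cells, rose with wide spread in the -/- samples, at 4993, 1044 and 37.3 against 6206, 8579 and 7626 (10.3-fold, 27.2-fold leaving out -/- sample 4 and 3.20-fold leaving out sample 8), and was not called without -/- sample 5 or any 1 of the +/- samples (adjusted p = 0.0683 to 0.108) or with the block (adjusted p = 0.549).

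Interferon response genes split. Of 28 members 6 rose and 8 fell (median -0.05, the same as over all genes), and with the block 0 rose and 3 fell. Those 3 were Rsad2, the antiviral protein viperin, at 74100, 96440 and 84740 against 3442, 4068 and 1543 (30.0-fold lower, adjusted p = 5.95e-07; 0.00298 with the block), Isg20, an exonuclease, at 10240, 15100 and 18220 against 417, 489 and 551 (27.5-fold lower; 0.000548 with the block), and the regulator Irf7, at 2260, 2567 and 3046 against 1016, 1045 and 978 (2.52-fold lower; 0.0342 with the block). Rsad2 and Isg20 moved by more than 16-fold, far from the median of their list. The rises included Psmb8, an immunoproteasome subunit, at 595, 74.9 and 22.4 against 2271, 2213 and 2837 (16-fold, 9.49-fold leaving out -/- sample 8 and at least 18.6-fold leaving out sample 4; 0.148 with the block), and Ifit3 at 221, 170.5 and 167 against 720.0, 1166 and 435 (3.46-fold; 0.267 with the block). Oas1a was at 4128, 2944 and 2207 against 2723, 4688 and 2054 and Oasl2 at 427, 385 and 386 against 369.5, 386 and 371, with overlapping groups.

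Of 14 members of the BCL2 family of death regulators 3 rose and 1 fell (median -0.27), beside 9.44% and 7.17% of all genes. With the block 0 of either were called, and the median was 0.41. Bcl2l1, the survival protein BCL-XL of red cell precursors, had 3882, 7305 and 8312 against 1882, 2057 and 3292 (2.62-fold lower, adjusted p = 0.00688; 0.218 with the block). Mcl1, the survival protein of granulocytes, had 3487, 2411 and 2942 against 4928, 7428 and 6252 (2.09-fold higher; 0.541 with the block; adjusted p = 0.0501 without -/- sample 5). Bid and Pmaip1, which promote death, were under 100 in every -/- sample and at 268 to 376 in the +/- samples. Bcl2 itself overlapped at 869, 636 and 530.0 against 982, 705 and 596.

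Immediate early and heat shock genes, which respond to handling, were higher in the CD45+ Sca1- samples. Of 24 members 14 rose and 1 fell (median 1.72), and 5 rose with the block (median 2.34). Atf3, a stress-induced factor, had 69.4, 34.3 and 49.6 against 1284, 1384 and 1299 (at least 10.2-fold, adjusted p = 2.05e-06; 0.00153 with the block). Fos had 2067, 577 and 458 against 12060, 7750 and 7735 (10.5-fold, 16.5-fold leaving out -/- sample 4; 0.0346 with the block), and Nr4a1, an orphan nuclear receptor, had 194, 192 and 214 against 1108, 1774 and 1010 (5.56-fold; 0.0912 with the block). The summed signal of the list was 46610 to 75760 in -/- and 117000 to 145300 in +/- samples, and its part in the other rises was not tested. The member that fell was Dnajb1, a heat shock co-chaperone, at 5394, 11200 and 16110 against 3822, 2754 and 5333 (2.58-fold lower; 0.888 with the block), which lost its call without -/- sample 5 or 8 or +/- sample 1 or 7 (adjusted p = 0.0776 to 0.136).

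**Figure D3:**
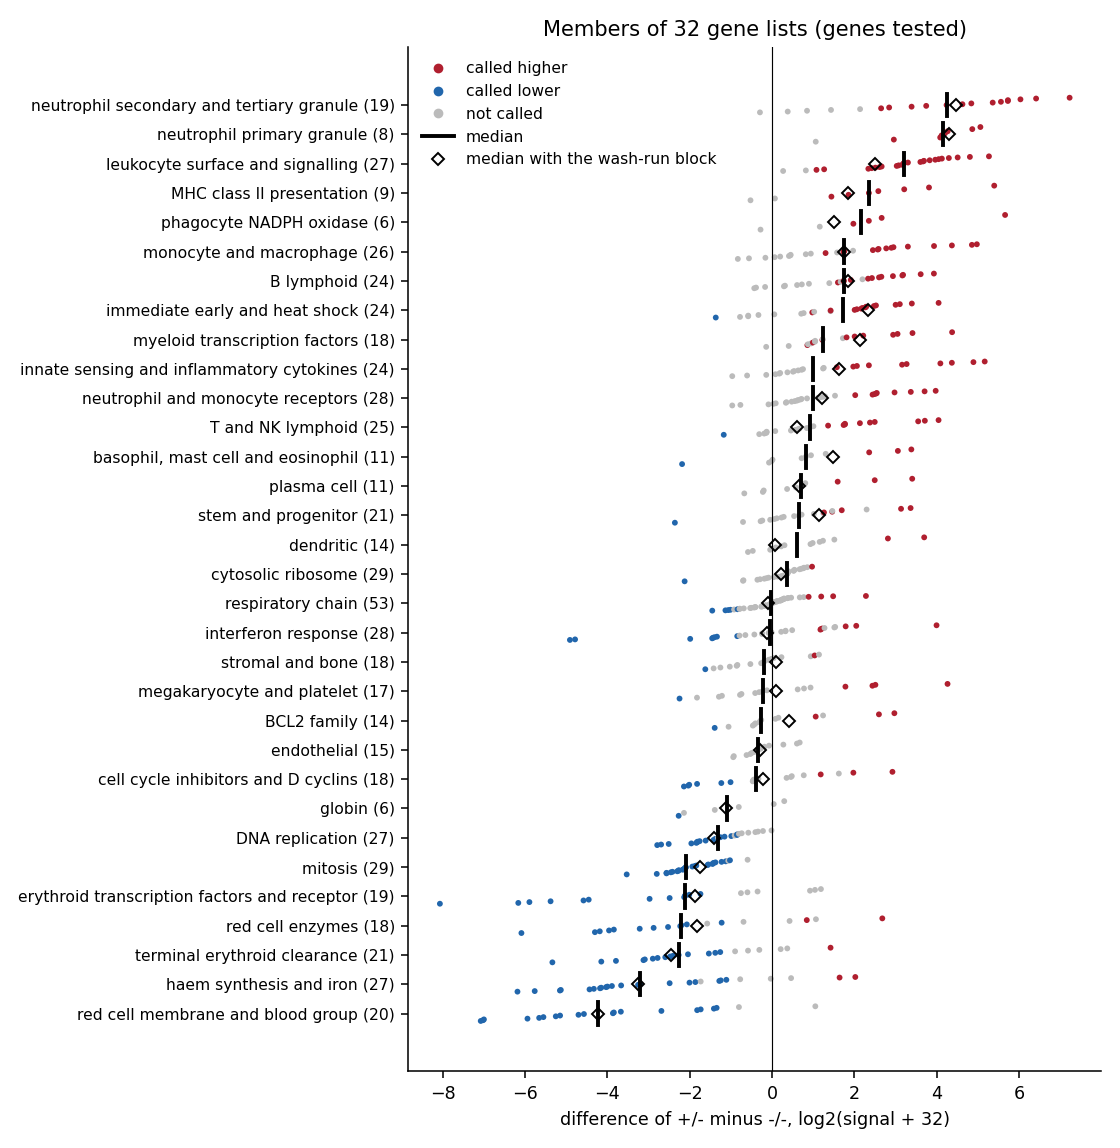
Each point is a measured member of 1 of 32 gene lists, placed by its difference of +/- minus -/- in log2(signal + 32) and coloured by its call. Black bars mark list medians and open diamonds the medians with the wash-run block. The medians run from -4.22 for red cell membrane genes to 4.24 for secondary and tertiary granule genes.

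Markers of other cells that either sort could hold were read as whole lists, beside 9.44% of all genes rising and 7.17% falling. Of 17 megakaryocyte and platelet genes 4 rose and 1 fell (median -0.22), with summed signals of 5505 to 6744 in -/- and 6746 to 10930 in +/- samples, and with the block 1 rose (median 0.11). The defining Pf4 was at 372, 497 and 517 against 1420, 693 and 531 and Itga2b at 697, 786 and 728 against 938, 562 and 578, neither called. Itgb3, an integrin chain that macrophages also carry, had 90.1, 40.2 and 63.7 against 2688, 1848 and 1138 (at least 13.8-fold; 0.0217 with the block). Gp9, a platelet glycoprotein, fell 4.74-fold from 758, 592 and 729 against 81.7, 197 and 103 (adjusted p = 0.00265; 0.0554 with the block). Of 15 endothelial genes 0 were called in limma, with or without the block (median -0.33). Their summed signals were 3793 to 4901 and 3186 to 3462, and the defining Cdh5 was at 246, 164 and 272 against 149.6, 99.5 and 159.6. Of 18 stromal and bone genes 1 rose, Igfbp4, and 1 fell, Sparc (median -0.20; 0.11 with the block, which called 0). Igfbp4 was not called without -/- sample 5 or +/- sample 1 (adjusted p = 0.0694 to 0.0794), and Sparc was called in none of the fits without 1 sample except that without +/- sample 1 (adjusted p = 0.0541 to 0.136). The summed stromal signals were 4939 to 6717 and 5777 to 8785. Col1a1 was at 389.6, 66.6 and 401 against 259, 155 and 159.8 and Pdgfrb under 100 in all 6 samples. The part of these cells in the other results was not tested.

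Housekeeping genes were called in both directions, beside 9.44% of all genes rising and 7.17% falling. Of 29 cytosolic ribosome genes 1 rose, Rps25, and 1 fell, Rps16 (median 0.36; 0 called with the block). Neither was called without -/- sample 5, -/- sample 8, +/- sample 1 or +/- sample 9, and Rps16 was also not called without +/- sample 7 (adjusted p = 0.0863 to 0.117 for Rps25 and 0.056 to 0.128 for Rps16 in those fits). The Rps16 probe set was dim, at 194.9, 746.5 and 277.8 against 64.8, 58.9 and 43.5, so its fall is a bound (at least 2.88-fold). Without -/- sample 4 the counts of the ribosome list were 2 and 1. Of 53 respiratory chain genes 4 rose and 5 fell (median -0.01), with 0 and 1 with the block. Counts without -/- sample 5 or without +/- sample 1 were 2 and 3, and without -/- sample 8 they were 3 and 3. Ndufb9, a subunit of complex I, fell 2.73-fold from 3664, 3018 and 2792 against 1233, 1125 and 1034 (adjusted p = 0.000973; 0.0271 with the block).

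**Figure D4:**
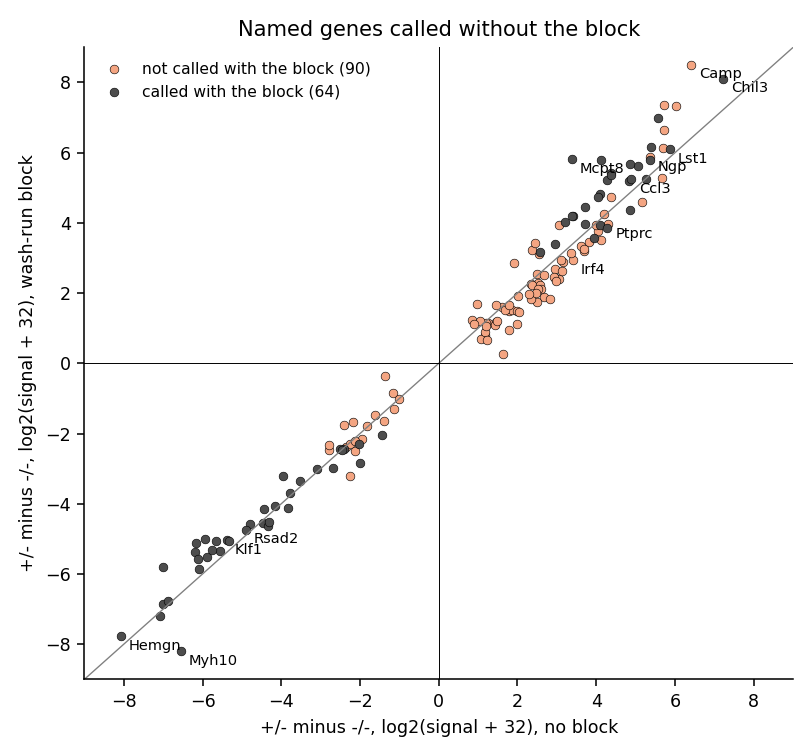
Each point is 1 of the 154 named genes called in the comparison, with its difference without a block on the x axis and with the wash run as a block on the y axis, both in log2(signal + 32). Dark points are the 64 still called with the block and light points the 90 that were not, and the line marks equal values. None of the 154 changes sign, and 36 of the dark points are falls and 28 rises.

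The +/- samples were also set against the +/+ samples, in the same fit, to see which of the genes above differ between CD45+ cells without and with Sca1. It shares the +/- samples and the estimate of the spread with the comparison against -/-. It called 24 of 16997 genes (0.141%), and with the block 3 of them, Fn1, Cd4 and Gimap4, while all 24 kept their sign. Fn1, fibronectin, was higher in +/- than in +/+ samples by 3.19 on the log2 scale (adjusted p = 0.000511; 0.0285 with the block), with signals of 5233, 6683 and 4398 against 917, 422 and 451. F13a1 was higher by 2.40 (adjusted p = 0.0239; 0.22 with the block), with 3905, 3439 and 2186 against 873, 473 and 416, and Hp by 4.11 (adjusted p = 0.0444; 0.251 with the block), with 13620, 4101 and 2648 against 703, 220.0 and 127. For these 3 genes every -/- and +/+ signal lay under every +/- signal. H2-Eb1, a class II beta chain, was lower in +/- than in +/+ samples by a difference of -2.76 (adjusted p = 0.0181; 0.239 with the block), with 1628, 3885 and 1449 against 14650, 11100 and 18240, although it rose 5.11-fold against the -/- samples (0.306 with the block). The difference between +/- and +/+ samples was not called for any member of the red cell, haem, replication or mitosis lists. For Hemgn it was -0.24 (adjusted p = 0.981) and for Mki67 0.52 (adjusted p = 0.842).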

How the data were processed

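Total RNA from sorted mouse marrow was read on MOE430A and MOE430B arrays. The deposited values are intensity (MAS5 signal, per the submitters' processing notes; MAS5 version not stated in these sources), and stations, chip lots and sign order were read per the file headers. Wash runs were inferred from gaps of over 60 minutes between the hybridization times given there. Signals were scaled array by array to a trimmed mean of 500 (2% off each end), and log2(signal + 32) was tested with limma 3.58.1 (lmFit, eBayes with trend; R 4.3.3) on the 9 OGCsort samples, chip by chip. Probe sets needed a signal above 100 in 2 or more of a chip's 11 arrays. P-values were Benjamini-Hochberg adjusted over both chips, with a threshold of 0.05.

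A gene was read from 1 probe set, preferring chip A, a plain "_at" name and the highest mean. Other probe sets of the same gene did not always carry the same call. Of 725 distinct genes in the 32 lists, 72 had no probe set naming a single gene and 10 fell below the filter. Named genes were Ptprc, the 12 largest rises and 12 largest falls without overlap, and, per list, up to 4 members with the smallest adjusted p, members called against the list's direction, and any called member of lists with 8 or fewer calls. Not all are printed. Other genes (haem enzymes, defining markers, members that were not called) were chosen with their values seen. The lists and the comparison were chosen with earlier results of these data known.

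Alternatives changed the pseudocount, filter, scaling, eBayes options, array weights, samples, probe set and wash-run block. The script was tested on simulated data.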

Additional observations from a re-analysis of the deposited data

How the results depend on the processing

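The Ptprc difference and those of the named called genes kept their sign under every alternative run, while the near-zero medians of the lists of cell cycle inhibitors, interferon, BCL2, megakaryocyte, stromal and respiratory chain genes changed sign under at least 1. With the wash run blocked, and on chip B also the station, 189 probe sets were higher and 317 lower (85 and 189 genes). The share of higher calls among called genes went from 56.8% to 31.0%, and the Ptprc difference was 3.96 (adjusted p = 0.057 in limma, against 4.51e-05 without the block). The cause was not tested, and the block's SE was 1.85 times as large at the median. Leaving out 1 sample gave 2109 to 3794 probe sets higher and 1575 to 2448 lower, 1042 to 1898 genes higher and 809 to 1243 lower, and a Ptprc difference of 3.72 to 5.07. Rises were fewest without +/- sample 7 and most without -/- sample 4, and falls fewest without -/- sample 5. Leaving out -/- sample 4 and +/- sample 1 together, chosen after seeing the data, gave 1821 and 1224 genes. The remaining alternatives gave 1198 to 1840 genes higher and 1002 to 1338 lower. No paired analysis was possible because the compared groups share no sort number. The number as a random replicate block gave 1714 and 1312 genes and a Ptprc difference of 4.28. Of 154 called named genes, 39 moved by over 1.5 times in fold, and 26 lost the call, in at least 1 fit without a sample. The count of 39 is a lower limit, since fits in which a fold became a bound, or a bound a fold, were not compared. Signals under 100 are near background, so folds of such genes are bounds, and 3 samples a group limit what single genes show.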
